A study of Mus musculus with 4 samples.

Results

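Nuclei with transcripts of arterial endothelial genes were examined in mouse hearts, and 1144 of the 28128 nuclei past the quality filters were such members (28216 nuclei were deposited). A nucleus was taken when it held at least 500 unique molecular identifiers (UMIs, each counting 1 captured RNA molecule), at least 300 genes and at most 10% mitochondrial UMIs, and when Ttn, Ryr2 and Myh6, the cardiomyocyte genes, made up less than 2% of its UMIs. It further had a UMI of at least 2 of the 7 endothelial genes Pecam1, Cdh5, Flt1, Ptprb, Emcn, Cyyr1 and Mecom, of at least 2 of the 8 arterial genes Gja5, Sema3g, Stmn2, St8sia6, Fbln5, Efnb2, Lama3 and Mannr, and of at most 1 of the 4 endocardial genes Npr3, Tmem108, Smoc1 and Cytl1. The members were thus chosen on measured counts, so the levels of these genes are given as a description with no test.

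The study put a stop codon into Vegfa with CRISPR/Cas9 (the Q150X allele) and profiled whole hearts of wild-type (WT) and Q150X mice by single-nucleus RNA sequencing, either without injury (homeostasis) or 3 days after myocardial infarction (3dpMI). The series text marks the Q150X mice with the letters HO, and neither the number of hearts in a library nor strain, age or sex is given in the sources used here. Each of the 4 groups was 1 library, so no difference here has a replicate check and no p-value is given. The 95% intervals cover counting error only. Members numbered 95 in WT and 71 in Q150X hearts at homeostasis, and 541 in WT and 437 in Q150X hearts at 3dpMI. They held 162415, 115027, 2079446 and 2534939 UMIs in that order, with medians per nucleus of 1279, 1062, 2390 and 4344, so depth was higher after infarction and differed between the infarcted libraries. Pairs of libraries shared between 39 and 117 cell barcodes, and 2 shared barcodes were members in both infarcted libraries.

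Arterial endothelium lines the vessels that carry blood into the tissue. It is set apart from capillary and venous endothelium by Notch signalling between neighbouring cells, by SOX-family transcription factors, by ephrin-B2 on the cell surface, and by the connexins that couple arterial cells electrically. VEGF-A, acting through the receptor encoded by Kdr and the co-receptor encoded by Nrp1, lies upstream of Notch in arterial specification, and in the heart cardiomyocytes are a known source of VEGF-A.

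The label was checked first by clustering all 10339 nuclei past the endothelial and cardiomyocyte gates on genes that the selection did not use, and it held for a part of the set. In 1 cluster of 548 nuclei, led by Eps8l2, Alox12, Nebl, Alpl, Hey1, Lrrc3b and Prdm16, the independent arterial markers stood highest of the marker lists, with a median log2 ratio to the other clustered nuclei of 1.68. It held 316 of the 1144 members (27.6%), and members made up 57.7% of what is called the arterial cluster. A second cluster, led by Apln, Bmp2 and Kit, genes known from sprouting vessels, also had the arterial list highest, but with a median of only 0.12. These and the capillary and venous clusters, called the endothelial clusters, held 641 members (56.0%). Clusters led by lists of non-endothelial cells held 336 members (29.4%), of which 145 lay in macrophage or monocyte clusters, 89 in the pericyte cluster and 34 in the fibroblast cluster. Of the 145, 47 lay in a cluster with 84.9% of its nuclei called as doublets (nuclei captured together) and a median of 9508 UMIs. In a pair of clusters the cycling list stood highest. The first, led by Spc25, Rrm2 and Nusap1, genes of dividing cells, held 61 members. The second, led by named genes such as Adamts16, Gdf6 and P4ha3 and by no cycling gene, held 56 and was left unnamed, and neither was counted with the 336. A further 44 members lay in the lymphatic and 6 in the endocardial cluster. The members are therefore called arterial-gene nuclei, and values in the endothelial or the arterial cluster are given beside results where they were compared.

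**Figure D1:**
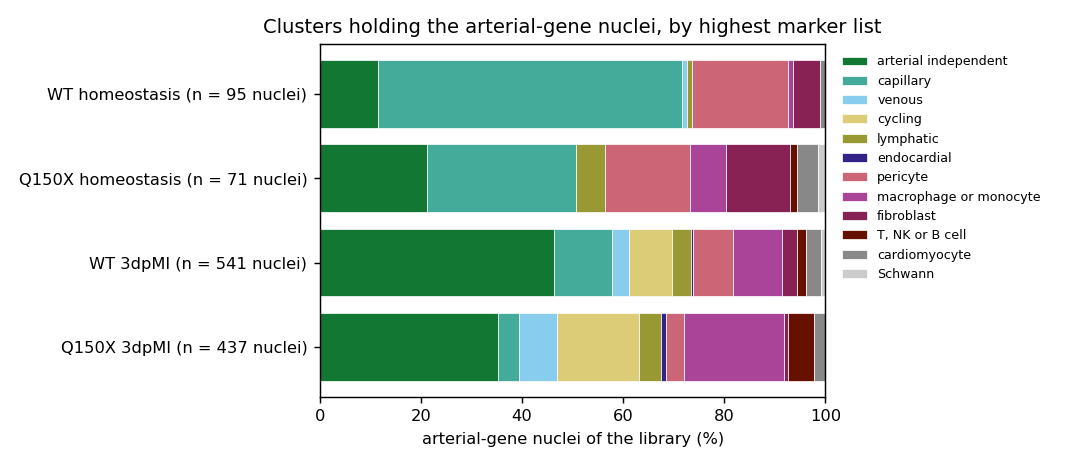
Percent of the arterial-gene nuclei (x axis) of each library (1 bar each, with the number of nuclei) that lay in clusters with each highest marker list (colours). In WT homeostasis 60% lay in capillary clusters, whereas in WT 3dpMI 46.4% lay in the clusters with the arterial list highest. The latter include the cluster led by Apln, Bmp2 and Kit, and the arterial cluster alone held 37.0%. The cycling colour includes the 56 members of the unnamed cluster.

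The mixture differed between libraries. The endothelial clusters held 72.6% of the members in WT and 50.7% in Q150X hearts at homeostasis, and 61.2% and 46.9% at 3dpMI. The arterial cluster held 11.6%, 21.1%, 37.0% and 20.6% in the same order. Capillary clusters held 57, 21, 62 and 18 of the 69, 36, 331 and 205 members in the endothelial clusters. Values in the endothelial clusters thus still compare sets of unlike mix. At homeostasis the most members lay in a capillary cluster led by Akr1c19, Ssu2 and Vwa3a, with 56 of 95 in WT and 21 of 71 in Q150X hearts, and a median depth of 718.5 UMIs over its nuclei. The cluster led by Apln, Bmp2 and Kit held 51 WT and 64 Q150X members of the infarcted hearts and 0 at homeostasis. Scrublet, which scores nuclei against simulated doublets, called 3.16% and 5.63% of the members at homeostasis and 13.9% and 20.6% at 3dpMI. Over all nuclei past the filters it called 4.88% and 5.19% at homeostasis and 7.32% and 9.31% at 3dpMI. A set rate was used for Q150X homeostasis and WT 3dpMI. Members were thus called more often than all nuclei in both infarcted libraries. The called members were kept.

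Markers of other cells differed between the groups. Summed over its 10 genes, the fibroblast list stood in the 4 libraries (WT and Q150X homeostasis, then WT and Q150X 3dpMI, the order used throughout) at 296, 1565, 1414 and 2036 CPM (UMIs scaled to 1000000 UMIs of the members in a library). The macrophage or monocyte list followed the same order of genotypes, with 166, 895, 908 and 1471 CPM. The pericyte list stood at 1687, 1617, 818 and 409 CPM and the smooth muscle list at 616, 939, 183 and 89.5 CPM, lowest in Q150X 3dpMI. The 7 cardiomyocyte genes outside the selection summed to 394, 1348, 502 and 189.7 CPM. The fibroblast list was lower in the endothelial clusters, at 94.1, 625, 921 and 944 CPM, as was the macrophage list, at 125, 89.4, 337 and 427 CPM. The cardiomyocyte list was not, at 397, 1370.1, 724 and 239 CPM. At homeostasis several defining markers were at 0 UMIs, among them Ptprc and Cd68 of macrophages in WT and Kcnj8 and Vtn of pericytes in WT. The part of these cells in the results was not tested, other than by the values in the endothelial clusters.

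The number of arterial genes per nucleus was small. Exactly 2 of the 8 genes were detected in 682 members, 3 in 227, 4 in 103 and 5 or more in 132. Just outside the threshold, with 1 arterial gene, lay 211, 246, 1099 and 887 endothelial-gated nuclei in the 4 libraries. Efnb2, which encodes ephrin-B2, was found in 77.8% of members, and the commonest pair, Efnb2 with Lama3, a laminin chain of basement membranes, in 31.6%. Gja5, the arterial connexin 40, was the rarest of the 8, in 13.5% of members, but was found in 62.1% of those with 5 or more genes. The share that lay in the arterial cluster was 17.2% among members with 2 genes, 34.4% with 3, 49.5% with 4 and 53% with 5 or more, so a stricter count picked a set with more of that cluster.

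Each arterial gene was far rarer outside the members, which the selection itself brings about. Gja5 was detected in 8.42%, 12.7%, 15.7% and 11.9% of members and in 0.118% to 0.641% of nuclei outside the endothelial gate. Efnb2 was detected in 55.8%, 54.9%, 78.7% and 85.1% of members, in 6.08% to 17.5% of the other endothelial-gated nuclei and in 1.54% to 5.32% of nuclei outside the gate, whose median depths were 966, 1041, 2488 and 2681 UMIs. Fbln5, an elastic-fibre protein that fibroblasts also make, reached 4.16% outside the gate. St8sia6, a sialyltransferase, stood at 425 (331 to 538) and 313 (219 to 433) CPM at homeostasis and at 214 and 107 CPM at 3dpMI. Gja5 stood at 86.2, 113, 74.1 and 69.8 CPM. Because these genes chose the nuclei, and a deeper nucleus passes with a lower CPM of them, nothing is read from these differences.

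Genes of arterial endothelium that the selection did not use were compared with the other endothelial-gated nuclei of the same library. These had at most 1 of the 8 arterial and at most 1 of the 4 endocardial genes. They also had at most 1 of the 5 lymphatic genes Prox1, Mmrn1, Reln, Flt4 and Lyve1, a limit not set for the members. Since the nuclei were chosen on counts of the same libraries, these ratios are a description. Of the 18 independent arterial markers, 12, 12, 13 and 16 were higher in the arterial-gene nuclei, and their sum was 1.41, 1.24, 1.43 and 1.41 times that of the other nuclei. The same ratio in the endothelial clusters was 1.21, 1.33, 1.38 and 1.44. Of 15 capillary markers, 12, 9, 10 and 13 were also higher over all members, so the count of arterial markers alone does not set the nuclei apart. The share of all genes that was higher in each library was not counted. Hey1, a transcription factor induced by Notch, was read 18, 3, 64 and 63 times, at 111, 26.1, 30.8 and 24.9 CPM against 19.4, 8.45, 4.90 and 2.89 CPM in the other nuclei. Its level was thus higher in all 4 libraries, although few UMIs in the Q150X homeostasis library gave a ratio of 3.09 (0.559 to 11.4). Sox17, an arterial transcription factor, stood at 123, 86.9, 109.6 and 94.7 CPM against 43.5, 27.5, 33.0 and 31.2 CPM, and its 4 ratios, 2.83, 3.16, 3.32 and 3.03, lay close together. Bmx, a tyrosine kinase of arterial endothelium, had ratios of 6.36, 3.53, 9.03 and 9.79.

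Not every arterial marker was higher. Cxcl12, a chemokine of arterial cells, had ratios of 2.44, 2.90, 2.19 and 1.92 over the other nuclei. Dll4, the Notch ligand of arterial cells and of sprouting tips, had a ratio of 0.617 (0.159 to 1.73) in WT homeostasis, and of 2.36 (1.98 to 2.81) and 3.04 (2.54 to 3.62) in the infarcted libraries. Nrp1 was level with the other endothelial-gated nuclei, with ratios of 1.0, 0.815, 0.972 and 1.11. Mgp, a calcification inhibitor that fibroblasts also make, had ratios of 0.509, 0.748, 0.802 and 0.809. Gkn3 was at 0 UMIs in 3 libraries. Capillary markers were also higher: their sum was 1.45, 1.24, 1.26 and 1.5 times that of the other nuclei, but 1.17, 0.924, 0.846 and 0.938 times in the endothelial clusters.

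**Figure D2:**
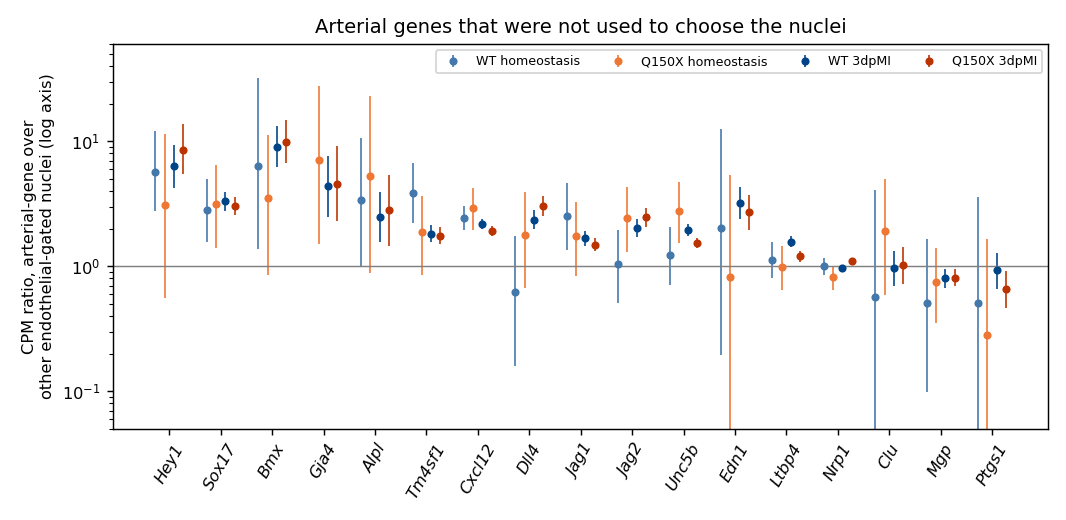
CPM ratio of the arterial-gene nuclei over the other endothelial-gated nuclei (log axis) for 17 arterial genes outside the selection, 1 point per library with its 95% counting interval; a point is missing where a library had 0 UMIs, and some intervals run past the lower edge. Hey1, Sox17, Bmx, Tm4sf1 and Cxcl12 lay above 1 in all 4 libraries, and Nrp1 lay near 1.

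The DNA just before the gene start is shown for 3 arterial genes because letters bound by Notch and SOX factors can be looked for there: Gja5, which helped choose the nuclei, and Bmx and Cxcl12, which did not. Each is the 250 bases before the start in RefSeq's annotation of the GRCm38.p6 build (the deposited counts use GRCm39), 5′ to 3′ on the gene's strand. Capitals mark TGGGAA (the core bound by RBPJ, the Notch partner) and ACAAT (a SOX core), searched on both strands.
Gja5, chr3:97032152-97032401, plus strand: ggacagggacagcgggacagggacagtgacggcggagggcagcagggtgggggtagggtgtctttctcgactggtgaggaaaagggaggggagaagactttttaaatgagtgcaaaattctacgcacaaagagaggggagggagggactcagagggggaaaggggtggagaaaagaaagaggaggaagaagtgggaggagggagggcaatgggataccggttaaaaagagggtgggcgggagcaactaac
Bmx, chrX:164258194-164258443, minus strand: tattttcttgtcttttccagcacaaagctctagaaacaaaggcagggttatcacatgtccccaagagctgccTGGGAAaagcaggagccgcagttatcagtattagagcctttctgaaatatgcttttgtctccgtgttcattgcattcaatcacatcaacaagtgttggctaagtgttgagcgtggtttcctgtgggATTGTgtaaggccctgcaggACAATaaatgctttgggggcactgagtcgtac
Cxcl12, chr6:117168285-117168534, plus strand: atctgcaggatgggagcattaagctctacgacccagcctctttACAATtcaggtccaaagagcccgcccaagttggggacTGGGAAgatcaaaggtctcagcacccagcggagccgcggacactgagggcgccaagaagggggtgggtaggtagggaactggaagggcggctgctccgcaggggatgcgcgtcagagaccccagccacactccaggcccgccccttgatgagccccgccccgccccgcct
The Bmx window held TGGGAA 178 to 173 bases before the start and ACAAT at 52 to 48 on the opposite strand and at 32 to 28. The Cxcl12 window held TGGGAA at 170 to 165 and ACAAT at 207 to 203, and the Gja5 window neither. Of the 26 arterial genes (8 of the selection and 18 independent), 20 were in the table with 24 promoters. TGGGAA was found in 3 of these 24 and in 21.6% of all 32851 promoters, and ACAAT in 6 of these 24 and in 27.7% of all. A match is a description of the letters, not a site.

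Ranked by the smallest of the 4 ratios, the 12 genes highest against the other endothelial-gated nuclei were Prox1, Nebl, Bmx, Prdm16, Hey1, Slc35f1, Lrrc3b, Sox17, Reln, Reep1, Zfp69 and Emid1. Of the genes with at least 100 UMIs, 1134 of 7144 were higher in all 4 libraries. Nebl, a nebulin-like actin-binding protein, was read at 936, 365, 298 and 138 CPM against 143, 64.1, 29.7 and 10.4 CPM, and its ratio within the endothelial clusters was 2.47, 5.83, 9.89 and 15.7. Prdm16, a transcriptional regulator of arterial endothelium that cardiomyocytes also express, had ratios of 3.53, 8.07, 5.40 and 4.98, and stood at 586, 294, 290.1 and 113 CPM outside the endothelial gate. Its ratios in the endothelial clusters were 0.430, 7.44, 12 and 10.3, the first from 2 UMIs. Prox1 and Reln are genes of lymphatic endothelium, and 44 members lay in the lymphatic cluster. Both were among the 5 lymphatic genes limited in the other endothelial-gated nuclei but not in the members. Of the members, 2, 4, 32 and 27 held at least 2 of these 5 genes. The ranks of Prox1 and Reln are thus partly set by that choice, and nothing is read from them. In the endothelial clusters of the infarcted hearts Prox1 had ratios of 1.28 and 0.545, and Reln of 0.982 and 1.02. The 8 lowest genes were Scara5, Hmcn2, Ccbe1, Pdgfra, Dnm1, Kcp, Gsta3 and Negr1, of which Pdgfra is a defining receptor of fibroblasts, and 1100 of 9496 genes were lower in all 4.

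Arterial-gene nuclei made up a smaller share of the Q150X than of the WT library at homeostasis, and, of all nuclei, a larger share after infarction in both genotypes. They were 2.17% of nuclei in WT (1.76% to 2.64%, exact Clopper-Pearson) and 1.10% in Q150X hearts (0.857% to 1.38%) without injury, so Q150X over WT was 0.505 (0.373 to 0.686). After infarction they were 5.91% and 5.38%, which gave 0.910 (0.805 to 1.03) whose interval includes 1. The infarcted share was 2.73 times that at homeostasis in WT (2.20 to 3.38) and 4.91 times in Q150X hearts (3.83 to 6.30).

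The shares depended on depth, since a gene is detected more often in a deeper nucleus. With every nucleus thinned to 500 UMIs, the 4 shares were 0.845%, 0.411%, 1.44% and 0.805%. The genotype ratio was then 0.486 (0.296 to 0.799) at homeostasis and 0.559 (0.416 to 0.751) at 3dpMI, and the infarction ratio 1.71 in WT and 1.96 in Q150X hearts. Q150X was thus the lower library in both states at equal depth. With nuclei thinned to 1000 UMIs, which left out 2383, 3266, 1612 and 977 shallower nuclei, the genotype ratios were 0.279 (0.155 to 0.502) and 0.664 (0.537 to 0.821). Counting only members in the endothelial clusters, they were 0.353 and 0.698. As a share of endothelial-gated nuclei the unthinned ratio at 3dpMI was 1.11 (0.988 to 1.25), and at 500 UMIs it was 0.823 (0.615 to 1.10). On that denominator the infarction ratio in WT was 1.28 (1.04 to 1.57) unthinned, 0.95 (0.665 to 1.36) at 500 UMIs and 0.737 (0.526 to 1.03) at 1000 UMIs, so the larger share in WT did not hold once depth was equalised on that denominator. When nuclei with at least 2 markers of another cell type were removed, the infarction ratio in WT turned to 0.942 and that in Q150X was 1.62. They were removed from the members alone and not from all nuclei, which left 60, 29, 118 and 59 members. Such markers too are detected more often in a deeper nucleus, so this change cannot be told apart from depth.

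**Figure D3:**
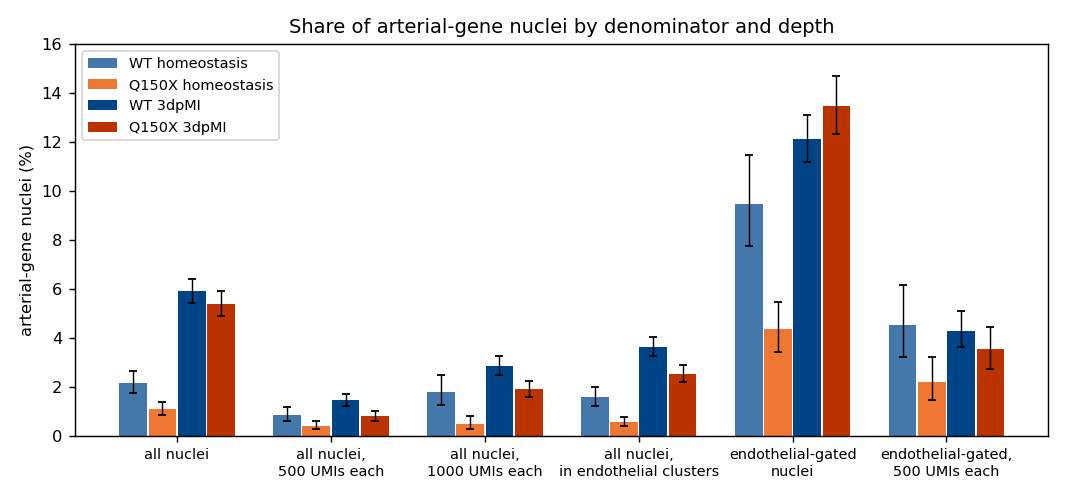
Percent of nuclei that were arterial-gene nuclei (y axis) in the 4 libraries (colours) for 6 choices of denominator and depth, with 95% counting intervals. The WT bar stands above the Q150X bar at homeostasis in all 6, and at 3dpMI in each but the unthinned endothelial-gated share.

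Q150X was compared with WT at homeostasis over 2935 genes with at least 20 UMIs in the 95 WT and 71 Q150X members together. A ratio of 1.5 or more counted as higher and its inverse as lower, which 19% and 17.8% of these genes passed. Capillary and fatty acid genes were mostly lower in Q150X. Of 11 capillary markers, 0 were higher and 8 lower, with a median log2 ratio of -0.98 against -0.03 over all genes, and of 10 fatty acid handling genes 0 were higher and 6 lower (median -0.73). The medians in the endothelial clusters were -0.63 and -0.34. Of the members there, capillary clusters held 57 of 69 in WT and 21 of 36 in Q150X. These medians, and the gene ratios in the endothelial clusters below, thus compare sets of unlike mix. The capillary and fatty acid lists share Fabp4, Fabp5, Cd36, Gpihbp1, Meox2, Tcf15 and Mgll, so they are not separate results. Of the fatty acid genes outside the capillary list, Pparg was lower, at 0.588, and Lpl, Ppard, Acsl5 and Cpt1a were not past 1.5-fold. Cd36, the fatty acid transporter of heart capillaries, was read 560 and 140 times in WT and Q150X, at 3448 and 1217 CPM, a ratio of 0.353 (0.291 to 0.426). It stayed below 1 in the endothelial clusters, at 0.428 (0.327 to 0.553), and was also lower in the other endothelial-gated nuclei, at 0.479. Btnl9, a capillary marker, had a ratio of 0.451, Fabp4, a fatty acid carrier, of 0.524, and Mgll, a lipase, of 0.506 (0.401 to 0.633). Their ratios in the endothelial clusters were 0.554, 0.820 and 0.772, of which the first has an interval below 1. In the arterial cluster, with 11 and 15 nuclei, Mgll had 20 and 28 UMIs and a ratio of 1.27 (0.690 to 2.38). Lpl, the lipase of circulating fat, had 61 and 37 UMIs and a ratio of 0.856 (0.553 to 1.31), whose interval includes 1.

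The 6 lowest genes at homeostasis were Gphn, Lars2, Cd36, Tcim, Esam and Dach1. Dach1, a transcription factor of coronary artery endothelium, stood at 1755 and 669 CPM in WT and Q150X members, a ratio of 0.381 (0.293 to 0.492), and of 0.595 (0.425 to 0.818) in the endothelial clusters. Esam, an endothelial adhesion molecule, rested on 45 and 7 UMIs. Gphn (1512 and 340 UMIs, ratio 0.318) and Lars2 (254 and 54 UMIs, ratio 0.300) were about as low in the other endothelial-gated nuclei, at 0.246 and 0.324, and stood at 0.281 and 0.219 in the endothelial clusters. The 6 highest were F13a1, Gsn, Rbpj, Slit3, Trappc9 and Camk1d, of which F13a1 marks macrophages and Gsn fibroblasts. A gene was ranked if it reached the level of the nuclei outside the gate in the library where it was higher, and all 6 did so in Q150X only, so nothing is read from their number. F13a1, for example, stood at 49.3 CPM against 97.0 outside the gate in WT and at 487 against 298 CPM in Q150X. F13a1 had 8 and 56 UMIs and a ratio of 9.88, but 6 and 1 UMIs in the endothelial clusters. Rbpj, the DNA-binding partner of Notch, had 9 and 45 UMIs and a ratio of 7.06, but 7 and 1 UMIs there, and Slit3, an axon guidance ligand, 6 and 1. The direction of these 3 genes, and of Camk1d, turned in the endothelial clusters.

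Among Notch genes, 5 of 14 were higher and 4 lower. Maml2, a Notch co-activator, had a ratio of 1.55 (1.29 to 1.87), and of 1.31 in the endothelial clusters. Notch3, the receptor of mural cells, had a ratio of 0.504 (0.260 to 0.928), with 5 and 0 UMIs in the endothelial clusters. Of 17 arterial transcription factors 1 was higher and 5 were lower, with medians of -0.33 in all members and -0.04 in the endothelial clusters. Epas1, an oxygen-responsive factor, had a ratio of 0.534 (0.425 to 0.668), and of 0.874 in the endothelial clusters. Prdm16 was the one that was higher, at 1.92 (1.11 to 3.36), and its 2 and 21 UMIs in the endothelial clusters gave 29.9 (7.31 to 263). Prdm16 is a leading gene of the arterial cluster, which held 11 of the 69 WT and 15 of the 36 Q150X members in the endothelial clusters. That ratio thus compares sets of unlike mix. Of 9 independent arterial markers 1 was higher and 4 were lower (median -0.50, and -0.01 in the endothelial clusters). Cxcl12 had a ratio of 0.402 (0.268 to 0.589), and of 0.712 in the endothelial clusters.

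Matrix and signalling genes varied. Of 16 elastic fibre and basement membrane genes, 7 were higher and 0 lower (median 0.47), but the median in the endothelial clusters was 0.04. Eln, which encodes elastin, was read 35 and 56 times, at 215 and 487 CPM, a ratio of 2.26 (1.46 to 3.55), and 16 and 23 times in the endothelial clusters, a ratio of 4.10 (2.07 to 8.30). The latter ratio compares the same sets of unlike mix as for Prdm16. Efna5, an ephrin, had a ratio of 3.48 (1.87 to 6.83), and Epha4, an ephrin receptor, of 0.378 (0.199 to 0.678). Of 10 genes of flow, tone and clotting 0 were higher and 4 lower. S1pr1, the sphingosine receptor that steadies endothelial junctions, had a ratio of 0.455 (0.289 to 0.698), and Plpp3, a lipid phosphatase held up by laminar flow, of 0.515 (0.354 to 0.735). The endothelial clusters gave 0.722 and 0.584. Of 16 BMP and TGF-beta genes 3 were higher and 4 lower.

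At 3dpMI the members held more UMIs than at homeostasis. Genes with few UMIs pass 1.5-fold more often by counting error, so the shares past it are not compared between the states. Of 12409 genes, 12.2% were higher and 6.84% lower in Q150X, and after each ratio was divided by the median of all genes the higher share of these was 54.2% in place of 64.1%. The 6 highest were Bmpr1b, Dpp4, Fos, Kcnk2, Fosb and Btla, and the 6 lowest Cdh19, Myh11, Rgs5, Opcml, Cpm and Fgf12. Several are markers of cells other than endothelium: Cdh19 of Schwann cells, Myh11 of smooth muscle, Btla of lymphocytes. By the same rule on levels, 3 of these 12 genes (Fosb, Rgs5 and Fgf12) reached the level outside the gate in both libraries. In the endothelial clusters Bmpr1b had 1 and 3 UMIs, Dpp4 1 and 1, Kcnk2 0 and 0, Cdh19 2 and 0, Btla 3 and 0, and Myh11 7 and 7, a ratio of 1.08 against 0.152 in all members. Fos, an immediate early factor, had 52 and 194 UMIs and a ratio of 3.06 (2.24 to 4.24), but 20 and 20 UMIs and a ratio of 1.08 in the endothelial clusters. Rgs5, a regulator of G-protein signalling best known from pericytes, was read 686 and 205 times, a ratio of 0.245 (0.209 to 0.287). Its ratio stood at 0.234 (0.166 to 0.324) in the endothelial clusters and at 0.429 in the arterial cluster.

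Arterial and capillary markers had medians below that of all genes in Q150X at 3dpMI. Of 17 independent arterial markers 0 were higher and 2 lower, with a median of -0.31 against 0.07 over all genes. The median was -0.09 in the endothelial clusters and 0.09 in the arterial cluster, the other direction. Alpl, an alkaline phosphatase of arterial endothelium, had 32 and 18 UMIs and a ratio of 0.461, but of 1.03 in the arterial cluster. Edn1, which encodes the constrictor peptide endothelin, had a ratio of 0.670 (0.478 to 0.937), but of 1.06 there and of 1.36 in members with at least 3 arterial genes. Of 15 capillary markers 2 were higher and 5 lower, with a median of -0.45, of -0.26 in the endothelial clusters and of -0.04 in the arterial cluster. Timp4, a protease inhibitor, had a ratio of 0.393 (0.228 to 0.659) and Btnl9 of 0.531 (0.462 to 0.609), with 0.463 and 0.575 in the endothelial clusters. Aplnr, the apelin receptor, had one of 1.77 (1.22 to 2.61), and of 2.70 in the endothelial clusters.

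Of 25 arterial transcription factors 0 were higher and 3 lower. Prdm16 was read 340 and 201 times, at 164 and 79.3 CPM, a ratio of 0.485 (0.405 to 0.579), with 0.607 (0.485 to 0.757) in the endothelial clusters and 0.819 in the arterial cluster. Its direction was opposite to that at homeostasis, a difference that was not tested. The cardiomyocyte list, of cells that also express Prdm16, summed to 502 CPM in WT and 189.7 CPM in Q150X members, and Prdm16 outside the endothelial gate to 290.1 and 113 CPM. Epas1 stood at 956 and 595 CPM, a ratio of 0.623 (0.582 to 0.666), with 0.692 in the endothelial clusters. Of 28 elastic fibre and basement membrane genes 4 were higher and 2 lower. Eln was read 691 and 437 times, a ratio of 0.519 (0.459 to 0.586), with 0.564 in the endothelial clusters and 0.771 in the arterial cluster. This too was opposite to homeostasis, but the ratio turned to 1.42 when nuclei with at least 2 markers of another cell type were removed. Mfap5, a microfibril protein, had a ratio of 2.38 (1.91 to 3.00) and Lox, which cross-links elastin, of 2.11 (1.58 to 2.84), while Tnxb, a tenascin, had one of 0.310. The endothelial clusters gave 3.00 for Mfap5, 1.67 for Lox and 0.406 for Tnxb.

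Of 22 BMP and TGF-beta genes 3 were higher and 3 lower. Smad6, an inhibitor of BMP signals, stood at 195 and 111 CPM, a ratio of 0.568 (0.486 to 0.663), and Id1, a target of BMP signals, at 92.3 and 49.3 CPM, a ratio of 0.534 (0.423 to 0.672). Both ratios were similar in the endothelial clusters, at 0.552 and 0.551. Bmper and Id2 had ratios of 2.37 and 2.11 but few UMIs in the endothelial clusters, where Bmper had 8 and 5 and Id2 3 and 1 and both lay below 1. Of 23 Notch genes 1 was higher and 2 were lower. Lfng, which adds sugars to Notch, had a ratio of 1.82 (1.09 to 3.12), but of 0.829 without nuclei that held other cells' markers. Notch3 had a ratio of 0.588, and Jag2, a Notch ligand of arterial cells, one of 0.765 (0.630 to 0.929), and of 1.04 in the arterial cluster. Of 27 axon guidance genes 4 were higher and 3 lower.

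**Figure D4:**
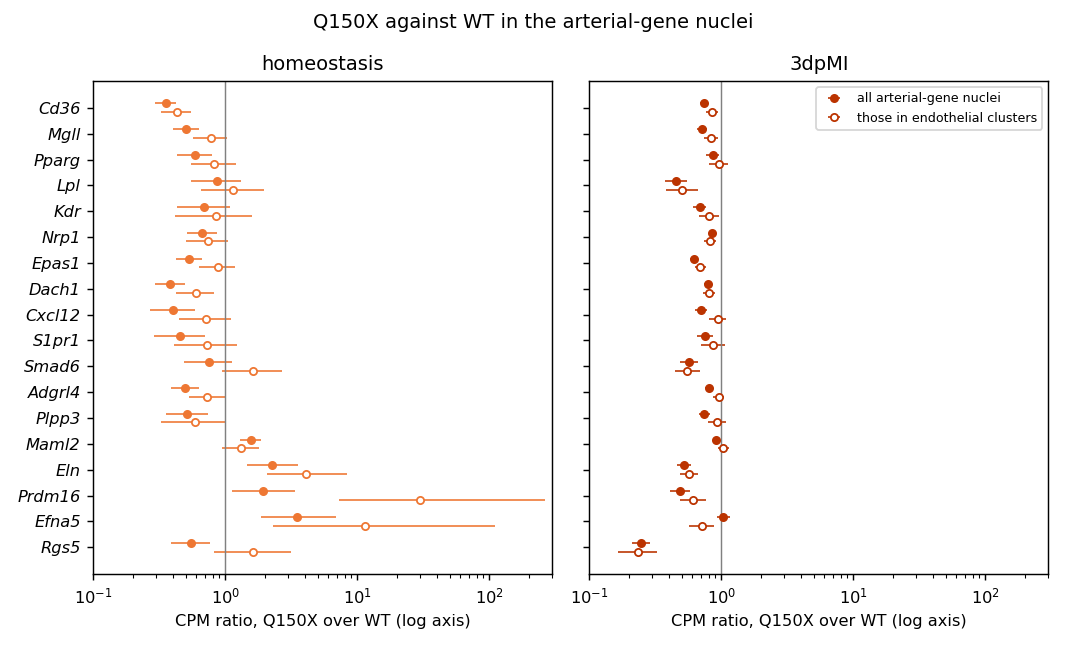
CPM ratio of Q150X over WT (log axis) for 18 genes picked after their values were seen, at homeostasis (left) and 3dpMI (right), with 95% counting intervals, in all arterial-gene nuclei (filled) and in those of the endothelial clusters (open). Eln and Prdm16 lie above 1 at homeostasis and below 1 at 3dpMI, and Cd36 and Epas1 lie below 1 in both, although in the arterial cluster, which is not plotted, Cd36 stood at 1235 CPM in WT and 1252 CPM in Q150X at 3dpMI.

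Infarction was compared with homeostasis within each genotype. Each of these comparisons shares its libraries with the genotype comparisons, so values are given side by side and no overlap between them is counted. In WT members 10327 genes had at least 20 UMIs, of which 42.2% were higher and 12.5% lower at 3dpMI. Of the 4361 higher genes, 1098 (25.2%) had 0 UMIs at homeostasis, where the members held fewer UMIs by a factor of 12.8. The median log2 ratio of all genes was 0.39. After each ratio was divided by that median, the higher share of the genes past 1.5-fold was 53.8% in place of 77.1%. Among the 3485 genes with at least 10 UMIs expected in the smaller library 26.4% were higher and 12.3% lower.

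Capillary genes were mostly lower in WT members after infarction. Of 15 capillary markers 0 were higher and 10 lower, with a median of -1.36, and of -1.24 in the endothelial clusters. Of the WT members in the endothelial clusters, capillary clusters held 57 of 69 at homeostasis and 62 of 331 at 3dpMI. The values there thus compare sets of unlike mix. Cd36 stood at 3448 and 815 CPM before and after, a ratio of 0.236 (0.215 to 0.260), with 0.246 in the endothelial clusters. Timp4 had a ratio of 0.234, Kdr one of 0.840 and Aqp1, a water channel, one of 1.06 (0.616 to 1.98). Of 19 fatty acid genes, some of them also capillary markers, 7 were higher and 7 lower. Pparg, the nuclear receptor of lipid uptake, stood at 961 and 281 CPM, a ratio of 0.293 (0.245 to 0.352), whereas Plin2, which coats lipid droplets, had a ratio of 2.84 (0.946 to 14.0) from 3 and 109 UMIs. Arterial markers went both ways: 7 of 17 were higher and 3 lower, beside 42.2% and 12.5% of all genes. Hey1 had a ratio of 0.278 (0.163 to 0.498), Cxcl12 of 0.477 (0.394 to 0.582), Dll4 of 3.92 (1.51 to 14.5) and Mgp of 4.17 (1.40 to 20.4).

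The 6 highest genes in WT after infarction were Tnc, Diaph3, Camk1d, Cdk8, Cmss1 and Rad51b. Tnc, a matrix protein of wounds, was read 0 and 823 times, at least 21.4-fold higher with 3 UMIs as the floor of a library, and 0 and 108 times in the endothelial clusters. Diaph3, a formin of dividing cells, was read 0 and 735 times, at least 19.1-fold higher. The cycling list, of which Diaph3 is a member, summed to 18.5 CPM at homeostasis and 954 CPM at 3dpMI, and to 0 and 244 CPM in the endothelial clusters. Cmss1, at 1933 and 21191 CPM, Camk1d and Cdk8 had ratios of 11, 17.6 and 17.0, and were also higher in the other endothelial-gated nuclei, at 10.2, 11.3 and 8.15. The 6 lowest were Dgkb, Kcnab1, Robo2, Vwa3a, Myh11 and Tcim. Of these 12 genes 6 reached the level outside the gate in both libraries. Vwa3a, a leading gene of the capillary cluster of the uninjured hearts, had 47 and 99 UMIs and a ratio of 0.165 (0.115 to 0.238), and 0.184 in the endothelial clusters. That capillary cluster held 56 of the 95 WT members at homeostasis and 1 of the 541 at 3dpMI. Dgkb, Kcnab1 and Myh11 had 2, 1 and 1 UMIs in the endothelial clusters at homeostasis.

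Matrix genes were mostly higher. Of 28 elastic fibre and basement membrane genes 18 were higher and 0 lower, beside 42.2% and 12.5% of all genes (median 0.96, 0.80 with the gene at 0 UMIs set to its bound, and 1.29 in the endothelial clusters). Bgn, a small proteoglycan, was read 2 and 264 times, a ratio of 10.3 (2.83 to 85.6), and Lox 0 and 67 times, at least 1.74-fold higher. Of 24 arterial transcription factors 5 were higher and 7 lower. Klf4, a factor held up by laminar flow, had a ratio of 0.237 (0.157 to 0.365), Dach1 of 0.457 (0.402 to 0.520) and Etv6, an ETS repressor, of 2.14 (1.70 to 2.73). Of 21 BMP and TGF-beta genes 9 were higher and 3 lower. Tgfbr2, the TGF-beta receptor, had a ratio of 3.17 (2.04 to 5.23), with 4.16 in the endothelial clusters, and Smad6 of 0.440 (0.342 to 0.574). Of 18 sprouting genes 10 were higher and 2 lower (median 0.97, but 0.29 with 4 genes at 0 UMIs set to their bounds). Adgrl4, an endothelial adhesion receptor, had a ratio of 0.527 (0.463 to 0.602) and Rgcc, a cell-cycle regulator, of 0.290.

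In Q150X members 41.1% of 11034 genes were higher and 15.6% lower after infarction, with a median log2 ratio of 0.33. Of the 4538 higher genes, 1668 (36.8%) had 0 UMIs among the 115027 UMIs of the homeostasis members. After division by the median, the higher share of the genes past 1.5-fold was 55.8% in place of 72.5%. Among the 2704 genes with at least 10 UMIs expected in the smaller library, 26.5% were higher and 11% lower. The 6 highest were Rad51b, Diaph3, Kit, Il4ra, Sbno2 and Lmnb1. Kit, a receptor tyrosine kinase, was read 0 and 297 times, at least 4.49-fold higher, and 0 and 139 times in the endothelial clusters. Il4ra, an interleukin receptor chain, had 3 and 663 UMIs, a ratio of 10.0 (3.42 to 48.8). Of these and the 6 lowest, 2 (Diaph3 and Il4ra) reached the level outside the gate in both libraries. The 6 lowest were Myh11, Dgkb, Pde8b, Acta2, Kcnab1 and Ano1, of which Myh11 (48 and 17 UMIs) and Acta2 (21 and 39 UMIs) define smooth muscle. The smooth muscle list summed to 939 CPM at homeostasis and 89.5 CPM at 3dpMI in these members. In the endothelial clusters Myh11 had 0 and 7 UMIs and Acta2 1 and 11.

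Capillary markers had a median below that of all genes after infarction in Q150X members too. Of 15 markers 1 was higher and 7 were lower (median -0.50, and -0.51 in the endothelial clusters). Of the Q150X members in the endothelial clusters, capillary clusters held 21 of 36 at homeostasis and 18 of 205 at 3dpMI, again sets of unlike mix. Cd36 stood at 1217 and 596 CPM, a ratio of 0.489 (0.411 to 0.586), and Mgll at 922 and 425 CPM, a ratio of 0.461 (0.378 to 0.569) that turned to 1.77 among the members found after thinning to 1000 UMIs. The Cd36 levels of the 4 libraries, 3448, 1217, 815 and 596 CPM, thus ran from WT homeostasis down to Q150X 3dpMI over all members. In the arterial cluster they were 3545, 1198, 1235 and 1252 CPM, with an infarction ratio in Q150X of 1.05 (0.658 to 1.76), so the order did not hold there. Of 18 fatty acid genes, some of them also capillary markers, 3 were higher and 7 lower. Lpl had a ratio of 0.217 (0.152 to 0.318) and Pparg of 0.427 (0.330 to 0.561). Of 17 independent arterial markers 4 were higher and 4 lower, beside 41.1% and 15.6% of all genes. Their median was -0.06 against 0.33 over all genes. Jag1 had a ratio of 1.60 (0.882 to 3.22), Jag2 of 0.626 (0.371 to 1.14) and Clu, a secreted chaperone, of 0.408 (0.163 to 1.32).

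Of 28 elastic fibre and basement membrane genes 14 were higher and 4 lower in Q150X members, shares near the 41.1% and 15.6% of all genes (median 0.58, and 1.02 in the endothelial clusters). Col18a1, the basement membrane collagen that yields endostatin, had a ratio of 7.01 (2.99 to 21.6), and Lox was at least 2.60-fold higher from 0 and 172 UMIs. Eln was lower, at 0.354 (0.268 to 0.476), and Tnxb at 0.182. Of 24 arterial transcription factors 6 were higher and 4 lower. Klf4 had a ratio of 0.239 (0.144 to 0.421) and Prdm16 of 0.268 (0.186 to 0.398). Of 22 BMP and TGF-beta genes 5 were higher and 5 lower. Tgfbr2 had a ratio of 4.28 (2.38 to 8.60), with 4.63 in the endothelial clusters, and Smad6 of 0.336 (0.239 to 0.484), which turned to 2.02 among the members found after thinning to 1000 UMIs. Of 18 sprouting genes 11 were higher and 0 lower (median 0.97, and 0.67 with 5 genes at 0 UMIs set to their bounds).

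**Figure D5:**
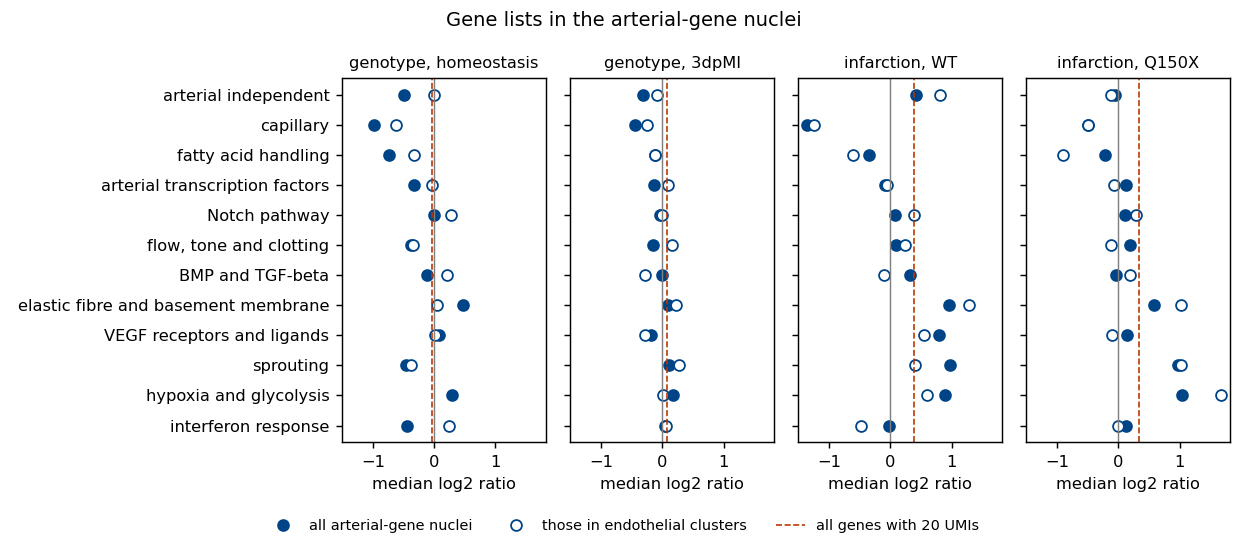
Median log2 ratio (x axis) of 12 gene lists in the 4 comparisons (panels), over genes with at least 20 UMIs. Filled points are all arterial-gene nuclei and open points those of the endothelial clusters, with fewer genes. The dashed line is the median of all genes. A gene with 0 UMIs at homeostasis counts as infinitely higher. With such genes at their bounds, hypoxia and glycolysis in Q150X infarction has a median of 0.03 in place of 1.04. Sprouting in WT infarction then has 0.29 in place of 0.97. Capillary markers in all arterial-gene nuclei lie at or below -0.45 in the 4 panels, and elastic fibre and basement membrane genes lie to the right in both infarction panels, although in Q150X their shares of higher and lower genes were near those of all genes.

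VEGF-A was scarce in these nuclei and its receptors were not. Vegfa had 1, 3, 114 and 117 UMIs, at 6.16, 26.1, 54.8 and 46.2 CPM, while the nuclei outside the endothelial gate stood at 514, 451, 310.0 and 179.9 CPM. Vegfc, the ligand of the lymphatic receptor, stood at 222, 287, 349 and 317 CPM. Kdr, the main VEGF-A receptor, stood at 376 (287 to 482), 261 (176 to 372), 315 (292 to 341) and 216 (198 to 235) CPM. Q150X over WT this gave 0.694 (0.433 to 1.09) without injury, an interval that includes 1, and 0.685 (0.611 to 0.769) after it. Within the endothelial clusters the values were 0.842 (0.416 to 1.59) and 0.808 (0.681 to 0.957). Nrp1 stood at 1151, 765, 858 and 733 CPM, with genotype ratios of 0.664 (0.510 to 0.861) and 0.854 (0.80 to 0.912). Nrp2, the partner of VEGF-C, stood at 289, 304, 554 and 560.2 CPM, close between genotypes in each state. Flt4, the lymphatic VEGF receptor, had a genotype ratio of 0.753 (0.637 to 0.889) at 3dpMI. Of the 5 VEGF genes with enough UMIs, 0 were past 1.5-fold higher in Q150X at homeostasis and 1 was lower, and of 9 at 3dpMI 0 were higher and 0 lower.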

How the data were processed

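Single nuclei of whole hearts were captured with the Chromium Single Cell 5′ version 2 kit, per the labels' protocols, and the authors deposited unnormalized counts (UMIs of each gene in each nucleus) from cellranger 7.1.0, per the file headers. Cell Ranger, Scanpy and the GRCm39 build are named in the submitters' processing notes, and whether doublets or ambient RNA were removed was not stated there. The selection was applied to the 33954 genes of each library, and UMIs were summed per library and scaled to CPM with Python 3.11.15, numpy 2.4.6, scipy 1.17.1 and pandas 2.3.3. Intervals are exact Poisson (levels), exact Clopper-Pearson (shares), exact conditional binomial (ratios) and log intervals (ratios of shares), and cover counting error only. Libraries held 5875965, 9283645, 30413471 and 32657625 UMIs. Endothelial-gated nuclei were clustered with Scanpy 1.11.5 and leidenalg 0.10.2 (2000 variable genes without the selection's genes, 30 components, 15 neighbours, resolution 1). Doublets were called with Scrublet and kept. Its automatic threshold called almost no nuclei in the Q150X homeostasis and WT 3dpMI libraries, where the highest scores were taken at 0.8% per 1000 nuclei. The summing and ratio steps were tested on simulated data. Genes were named by rule: the 12 highest and 8 lowest against other endothelial-gated nuclei; in each ratio the 6 highest and 6 lowest by the 95% bound nearest 1, with at least 50 UMIs and a level at least that of nuclei outside the gate, asked of the higher library alone, so genes that reached it there only are a description; and the 2 highest and 2 lowest of each list, without mitochondrial, ribosomal, sex-linked, haemoglobin and unnamed genes in the rankings. Other genes, and which lists are described by their ends, were picked after their values were seen. The members and lists were chosen with earlier results of these data known. Alternatives changed the selection, depth, filters, scaling, weighting and doublet removal.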

Additional observations from a re-analysis of the deposited data

Results flagged for a closer look

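For 13 genes among those listed, the Q150X over WT ratio lay above 1.5 at homeostasis and below its inverse at 3dpMI, with neither 95% interval including 1. Each state was 1 library per genotype, and the difference between the states was not tested.

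Among genes linked to arterial endothelium, Prdm16 had ratios of 1.92 and 0.485 and Eln of 2.26 and 0.519 at homeostasis and 3dpMI. The arterial cluster, which Prdm16 helps lead, held 11.6% of WT and 21.1% of Q150X members at homeostasis. At 3dpMI it held 37.0% and 20.6%. Within it both ratios at 3dpMI lay nearer to 1, as given above. Without nuclei that held other cells' markers, the Eln ratio at 3dpMI turned to 1.42. The matrix gene Tnxb had 2.97 and 0.310. Cardiomyocyte genes made up 5 of the 13: Actc1 had ratios of 8.82 and 0.461, Mb of 9.41 and 0.284, Myl2 of 15.5 and 0.421, Tnni3 of 5.29 and 0.318, and Tnnt2 of 3.00 and 0.479. The summed cardiomyocyte list stood at 394, 1348, 502 and 189.7 CPM in WT and Q150X homeostasis and WT and Q150X 3dpMI and holds these 5 genes among its 7. Of mural genes, the pericyte channel subunit Abcc9 had 1.68 and 0.544 and the smooth muscle myosin Myh11 1.58 and 0.152, beside a smooth muscle list of 616, 939, 183 and 89.5 CPM. The fibroblast marker Abca8a had 3.69 and 0.506, the sodium channel gene Scn7a 2.42 and 0.600, and the lymphatic marker Reln 3.77 and 0.650. In the endothelial clusters, 6 of the 13 rested on 0 to 3 UMIs in each homeostasis library: Abca8a had 2 and 1, Abcc9 1 and 3, Myh11 1 and 0, Reln 0 and 1, Scn7a 1 and 1, and Tnxb 3 and 0. The part of nuclei or RNA of these other cells in the ratios was not tested.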

How the results depend on the processing

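No paired analysis was possible because each group was 1 library, and for the same reason no replicate could be left out. Over the alternatives, 1398 of 1718 gene ratios, 800 of 814 list medians and 26 of 44 share ratios stayed within their main limits. Of 51 counts of genes past 1.5-fold, 31 stayed within 1.5-fold of the main count, whatever the direction of the genes. A gene ratio was called turned only where its main interval excluded 1, and 27 were. A value whose limits include no change could switch direction and still count as staying. The median of the independent arterial markers in Q150X over WT at 3dpMI did so, from -0.31 to 0.09 in the arterial cluster. Of the share ratios, that of infarction in WT fell below 1 and that of Q150X over WT at 3dpMI, whose interval includes 1, passed above it, as given next. The cause of a change was not tested, and under some alternatives fewer nuclei or genes entered. Limits to clusters, the thinned members and the expected UMIs were added after seeing the data.

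The share ratio of Q150X over WT at homeostasis (0.505) was 0.327 without nuclei that held other cells' markers, 0.353 in the endothelial clusters and 0.279 at 1000 UMIs. At 3dpMI (0.910) it was 0.563, 0.698, 0.559 at 500 UMIs, 0.664 at 1000 UMIs and 1.11 of endothelial-gated nuclei. The infarction ratio in Q150X (4.91) was 1.62 without other cells' markers, 1.96 and 3.81 at 500 and 1000 UMIs and 3.08 of endothelial-gated nuclei. In WT (2.73) these were 0.942, 1.71, 1.60 and 1.28, with 0.95 and 0.737 of endothelial-gated nuclei at 500 and 1000 UMIs, and 3.38 without Lama3 and Mannr and 2.10 from 1000 UMIs per nucleus. Nuclei with other cells' markers were taken out of the members alone, not out of all nuclei. A smaller part of the members was left in the deeper, infarcted libraries.

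Genes past 1.5-fold at homeostasis (1079) numbered 348 with at least 50 UMIs, 4218 with at least 1 UMI in each library, 617 with 3 arterial genes, 484 without other cells' markers, 518 in the endothelial clusters and 408 in the thinned members. At 3dpMI (2368) they numbered 1351, 5260, 1185 without other cells' markers and 1346 in the arterial cluster. For infarction in Q150X (6263) they numbered 4031 with at least 50 UMIs, 1014 with 10 expected UMIs, 1407 without other cells' markers, 3424 in the endothelial clusters and 2827 in the thinned members. In WT (5654) these were 3298, 1348, 1645, 2934 and 2743.

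Ratios of single genes whose main interval excluded 1 turned as follows. In the arterial cluster at 3dpMI the genotype ratio was 1.03 for Alpl, 1.06 for Edn1, 0.971 for Fabp5, 1.5 for Fgf12, 1.04 for Jag2, 0.895 for Klf6 and 2.10 for Myh11. In the endothelial clusters it was 0.676 for Bmper, 0.360 for Id2 and 1.08 for Myh11 at 3dpMI, and 0.95 for Camk1d, 0.475 for F13a1 and Slit3, 1.25 for Heg1, 0.814 for Nid1 and 0.407 for Rbpj at homeostasis. Without nuclei that held other cells' markers it was 1.24 for Cpm, 1.42 for Eln and 0.829 for Lfng and Slit2 at 3dpMI, and 1.22 for Heg1 and 0.761 for Nid1 and Slit3 at homeostasis. With 3 arterial genes it was 1.36 for Edn1 at 3dpMI. In the thinned members it was 0.984 for Bmper at 3dpMI, and the infarction ratio in Q150X was 1.77 for Mgll and 2.02 for Smad6.

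Depth limits the homeostasis values: 95 and 71 nuclei held 162415 and 115027 UMIs, so a gene with 0 UMIs there has only a bound.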
